A study of Homo sapiens with 15 samples.

Results

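Transcript levels of 10 genes of the YAP and TEAD pathway were followed through cardiac differentiation of H1, an established line of human embryonic stem cells with a WT genotype. The genes were chosen by symbol from the 60605 genes measured by bulk RNA sequencing. They comprised 4 factors (YAP1, WWTR1, TEAD1 and TEAD4) and 6 target genes (CCN1, CCN2, ANKRD1, AMOTL2, AXL and LATS2), and all 10 were among the 21206 genes that reached 1 FPKM in at least 1 library. FPKM is the count of a gene scaled by the length of its exons and by the total of the library. All cultures received CHIR99021, which activates WNT signalling, on day 0 and insulin on day 1, and the libraries of days 0, 1 and 2 are shared by the arms. NP-ctrl cells were left in their wells without any inducer (NP means not passaged), NP-IWP2 cells were also left in place and were given IWP2, which blocks WNT secretion, from day 2 to day 4, and passaged cells were detached with EDTA on day 2, replated 1:6 and received no WNT inhibitor. The 3 arms were each sampled once on days 3, 5, 7 and 10, which with days 0 to 2 made 15 libraries, and no level below has a replicate. Detachment, a new surface and a lower density came together in the passaged arm and cannot be told apart. The study reports that every differentiation after its cell survival tests included a ROCK inhibitor, which lowers actomyosin tension. It does not name these libraries there, and whether the replated cells also received insulin is not stated for them. Neither addition can be told apart from passaging.

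YAP1 and WWTR1, the latter better known as TAZ, are co-activators without a DNA-binding domain of their own. The kinases LATS1 and LATS2 of the Hippo pathway phosphorylate them and hold them in the cytoplasm, and when the kinases are inactive, for instance in spread cells under tension, the co-activators enter the nucleus and bind TEAD proteins, which recognise the DNA. Among their best known target genes are the secreted matrix proteins CCN1 (CYR61) and CCN2 (CTGF), the muscle ankyrin repeat protein ANKRD1, the receptor tyrosine kinase AXL, and AMOTL2 and LATS2, which restrain YAP in return. Control of YAP and TAZ lies mainly in their phosphorylation and location, which transcript levels do not show.

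Total counts per library ranged from 13254723 to 20250115. Mitochondrial genes took 3.71 to 6.14% of the counts, except for 1.53% in passaged cells on day 3 and 10.3% in passaged cells on day 10. Summed FPKM of 4 pluripotency markers ran from 1303 on day 0 to 2.09 in passaged cells on day 10, so the stem cell label given to every library describes the starting cells only. Cell type composition differed between arms (values are given beside the arm comparisons), and in bulk samples fewer cells of a type and less RNA per cell cannot be told apart.

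The sequence upstream of the start site is shown for the members whose windows held the TEAD motif upstream of the first listed start. No relation between these matches and the levels given below was tested. RefSeq windows (GRCh38.p14) were matched for 7 of the 10 members and trimmed to the 250 bases before the start. The letters searched were GGAATG and its reverse complement CATTCC, which do not overlap each other, and matches are in capitals.
CCN2, chr6:131951373-131951622, minus strand: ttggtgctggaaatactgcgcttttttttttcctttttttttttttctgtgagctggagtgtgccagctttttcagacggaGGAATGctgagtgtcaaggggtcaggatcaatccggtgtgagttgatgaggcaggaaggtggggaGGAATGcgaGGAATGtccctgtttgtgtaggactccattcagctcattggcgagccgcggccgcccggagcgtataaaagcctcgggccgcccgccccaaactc
ANKRD1, chr10:90921088-90921337, minus strand: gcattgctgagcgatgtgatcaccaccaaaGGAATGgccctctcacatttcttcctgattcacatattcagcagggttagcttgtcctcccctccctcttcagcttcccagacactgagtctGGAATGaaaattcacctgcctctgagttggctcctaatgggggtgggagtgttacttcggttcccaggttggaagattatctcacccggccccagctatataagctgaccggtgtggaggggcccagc
YAP1, chr11:102110197-102110446, plus strand: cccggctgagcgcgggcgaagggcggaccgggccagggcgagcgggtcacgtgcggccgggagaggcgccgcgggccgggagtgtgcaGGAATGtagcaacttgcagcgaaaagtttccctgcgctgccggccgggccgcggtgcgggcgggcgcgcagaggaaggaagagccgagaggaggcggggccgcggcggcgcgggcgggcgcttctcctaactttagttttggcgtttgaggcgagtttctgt
CCN2 held 3 matches, beginning 169, 104 and 95 bases upstream of its start, and ANKRD1 held 2, at 220 and 128 bases. YAP1 itself held 1, at 162 bases. AMOTL2 and AXL each had 1 match, at 69 and 212 bases upstream of their second listed start and on the reverse strand, and the windows of LATS2 and WWTR1 had none. Of all 35116 windows of this length, 11.9% held at least 1 match, 0.940% at least 2 and 0.0826% at least 3. A match describes the letters only and is not a site of binding.

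YAP1 (ENSG00000137693, chr11:102110447-102233424, plus strand, positions in hg38 as in the files) was the most abundant of the 10 transcripts per length in 11 of 15 libraries. It stood at 32.0, 44.4 and 41.8 FPKM on days 0, 1 and 2. On days 3, 5, 7 and 10 it was 62.6, 102, 88.8 and 67.3 FPKM in NP-ctrl, 58.2, 83.4, 85.1 and 76.2 FPKM in NP-IWP2, and 102, 90.7, 59.4 and 81.7 FPKM in passaged cells. The arms overlapped over days, and the libraries of days 3 to 10 spanned 1.76-fold between the lowest and the highest. The passaged arm reached its highest YAP1 level on day 3, when it was 1.63 times that of NP-ctrl (95% interval 1.58 to 1.69), and its lowest on day 7, at 0.669 times NP-ctrl (0.647 to 0.693). The intervals given for ratios come from the exact Clopper-Pearson share of the counts in either library and cover counting error only. They hold no variation between cultures, and any PCR duplicates counted like separate molecules would make them too narrow.

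WWTR1 (ENSG00000018408, chr3:149517235-149736714, minus strand) was far lower than YAP1 per length in every library. It rose in the comparison across days given below, from 2.80, 4.40 and 5.54 FPKM on days 0, 1 and 2. On days 3, 5, 7 and 10 it was 5.91, 8.87, 6.83 and 7.62 FPKM in NP-ctrl, 4.44, 5.48, 7.46 and 12.4 FPKM in NP-IWP2, and 5.65, 6.15, 6.14 and 7.56 FPKM in passaged cells. The highest level was that of NP-IWP2 on day 10, which was 1.62 times NP-ctrl (1.49 to 1.76). The ratio of WWTR1 to YAP1 ran from 0.0553 (0.0510 to 0.0599) in passaged cells on day 3 to 0.162 (0.154 to 0.171) in NP-IWP2 cells on day 10.

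TEAD1 (ENSG00000187079, chr11:12674421-12944737, plus strand) and TEAD4 (ENSG00000197905, chr12:2959330-3040676, plus strand), DNA-binding partners of the co-activators, took opposite courses over the first days. TEAD1 was 7.14, 9.54 and 13.5 FPKM on days 0, 1 and 2, whereas TEAD4 was 27.8, 16.6 and 13.1 FPKM. Day 2 was therefore 1.9 times day 0 for TEAD1 (1.77 to 2.02) and 0.469 times for TEAD4 (0.424 to 0.519). TEAD1 then stood at 9.11, 43.6, 24.5 and 23.6 FPKM in NP-ctrl on days 3, 5, 7 and 10, at 8.97, 28.4, 19.99 and 21.8 FPKM in NP-IWP2, and at 12.3, 18.7, 18.1 and 18.0 FPKM in passaged cells. Both static arms peaked on day 5, and the passaged arm was flat from day 5 on. The widest gap among the factors was TEAD1 on day 5, at 0.429 times NP-ctrl in passaged cells (0.411 to 0.448). TEAD4 was 9.03, 15.6, 9.25 and 6.47 FPKM in NP-ctrl, 8.18, 17.1, 10.6 and 4.30 FPKM in NP-IWP2, and 13.9, 16.8, 14.9 and 9.16 FPKM in passaged cells. Divided by the NP-ctrl level, this TEAD4 level was above 1 on every day, from 1.08 (0.958 to 1.21, within counting error) to 1.61 (1.39 to 1.87).

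**Figure D1:**
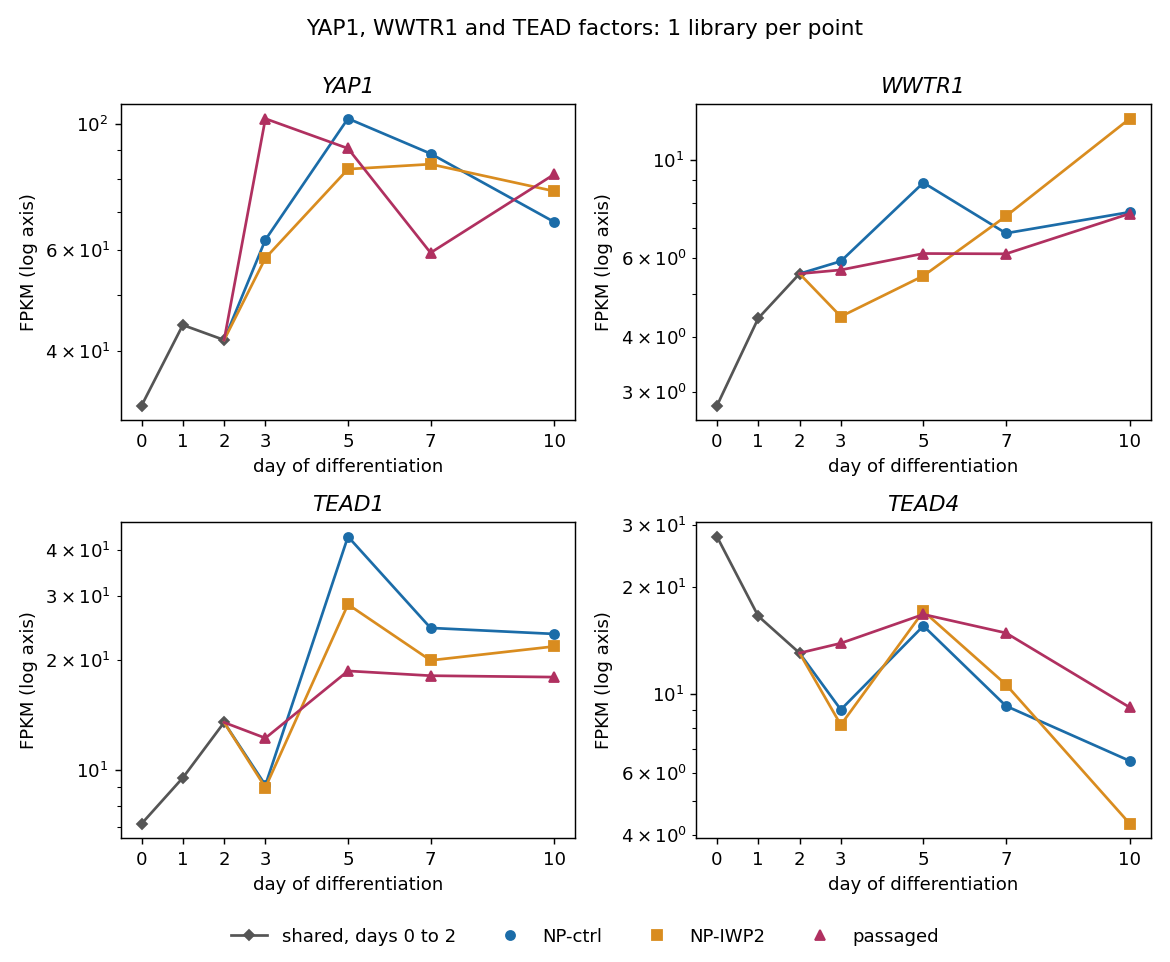
FPKM (log axis) of the 4 factors against the day of differentiation, 1 library per point, with the shared days in grey and the arms in colour. YAP1 peaked on day 3 in passaged cells (102 FPKM) and on day 5 in NP-ctrl (102 FPKM), TEAD1 peaked on day 5 in the static arms, and TEAD4 was highest on day 0 (27.8 FPKM).

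The TEAD family changed in makeup between day 0 and day 10. Summed FPKM of TEAD1, TEAD2, TEAD3 and TEAD4 lay between 74.5 in NP-IWP2 on day 10 and 126 in NP-ctrl on day 5. On day 0, TEAD2 made up 57.4% of that sum, TEAD4 24.5%, TEAD3 11.8% and TEAD1 6.29%. On day 10, the TEAD1 share was 25.9% (NP-ctrl), 29.3% (NP-IWP2) and 23.2% (passaged), and the TEAD4 share was 7.09%, 5.77% and 11.8%. In all 3 arms TEAD3 was then the most abundant TEAD transcript, with 35.0 to 39.3% of the sum.

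**Figure D2:**
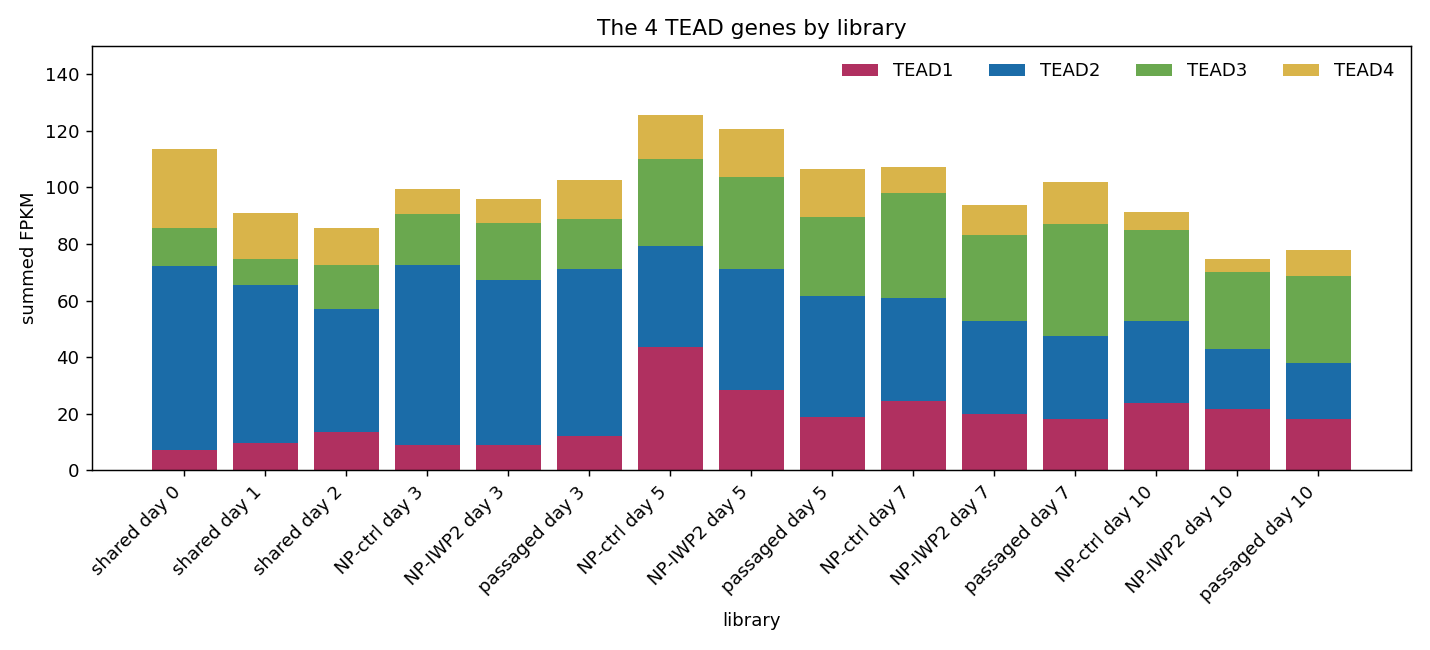
Summed FPKM of the 4 TEAD genes in each of the 15 libraries, ordered by day, with the share of each gene as a coloured segment. TEAD2 made up 57.4% of the sum on day 0, and TEAD3 was the largest segment in each arm on day 10.

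Turning to the targets, most were low on the shared days. CCN2 was 8.57, 3.15 and 4.84 FPKM on days 0, 1 and 2, CCN1 8.78, 3.33 and 3.61 FPKM, AXL 4.11, 2.01 and 3.95 FPKM, and LATS2 4.40, 3.40 and 4.45 FPKM. All 4 were lowest on day 1, one day after CHIR99021. AMOTL2 went the other way, with 10.8, 30.0 and 13.9 FPKM, and day 1 was 2.79 times day 0 (2.61 to 2.98). ANKRD1 was barely detected, with 15 counts on day 0 and 1 count on day 1, and reached 2.01 FPKM on day 2. Between days 0 and 1, 3 of the 10 members differed by at least 1 in log2(FPKM + 1), a scale that understates changes of low genes, against 6.72% of all genes tested. AMOTL2 was higher and CCN1 and CCN2 were lower, and no factor passed that limit.

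CCN2 (ENSG00000118523, chr6:131948176-131951372, minus strand) was the one member called between passaged cells and either static arm in the test given below. In passaged cells it was 19.5, 248, 231 and 56.5 FPKM on days 3, 5, 7 and 10. In NP-ctrl it was 8.11, 29.3, 34.5 and 29.9 FPKM and in NP-IWP2 8.97, 29.9, 52.4 and 29.5 FPKM. The passaged library was the highest on each of the 4 days, although its day 3 level lay below the later levels of both static arms. In that order of days, passaged cells had 2.40 (2.09 to 2.76), 8.46 (7.94 to 9.02), 6.70 (6.29 to 7.15) and 1.89 times (1.75 to 2.04) the CCN2 level of NP-ctrl. Within the passaged arm, day 5 was 12.7 times day 3 (11.7 to 13.8), and day 10 was 0.244 times day 7 (0.233 to 0.257). Day 7 minus day 5 of that arm was -0.10 in log2(FPKM + 1) and 0.05 with FPKM rescaled by TMM factors, so their order depended on the scaling.

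ANKRD1 (ENSG00000148677, chr10:90912096-90921087, minus strand), a cofactor and sarcomeric protein of heart muscle, reached the highest level of any member. In passaged cells it was 7.06, 186, 483 and 123 FPKM on days 3, 5, 7 and 10, in NP-ctrl 16.3, 11.8, 21.5 and 17.8 FPKM, and in NP-IWP2 10.6, 13.2, 108 and 27.3 FPKM. The passaged library was the lowest of the 3 on day 3 and the highest on the later days, while NP-IWP2 stood clear of NP-ctrl on day 7. Passaged cells thus had 0.433 (0.361 to 0.516), 15.8 (14.1 to 17.7), 22.4 (20.5 to 24.5) and 6.92 times (6.26 to 7.67) the ANKRD1 level of NP-ctrl over those days.

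CCN1 (ENSG00000142871, chr1:85580761-85584589, plus strand) was 7.67, 57.6, 43.2 and 7.89 FPKM in passaged cells, 5.79, 19.7, 21.9 and 19.9 FPKM in NP-ctrl, and 6.17, 18.6, 23.8 and 11.8 FPKM in NP-IWP2. Passaged cells were highest on days 3, 5 and 7 and lowest on day 10. The ratio to NP-ctrl was 2.93 on day 5 (2.74 to 3.14) and 0.398 on day 10 (0.355 to 0.445). CCN1 thus shared the day 5 peak of CCN2 in FPKM but not its position on day 10.

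AMOTL2, AXL and LATS2 were not above NP-ctrl beyond counting error in passaged cells from day 5 on. AMOTL2 (ENSG00000114019, chr3:134355347-134375479, minus strand) was 23.3, 36.1, 33.2 and 14.8 FPKM in passaged cells, 9.89, 39.2, 32.9 and 23.6 FPKM in NP-ctrl, and 8.98, 38.8, 32.4 and 16.0 FPKM in NP-IWP2. It was above NP-ctrl on day 3, at 2.36 times (2.19 to 2.55), and on day 7 the ratio of 1.01 was within counting error (0.961 to 1.06). AXL (ENSG00000167601, chr19:41219223-41261766, plus strand) was 15.6, 22.0, 22.8 and 19.1 FPKM in passaged cells, 14.6, 32.4, 50.5 and 39.0 FPKM in NP-ctrl, and 13.5, 29.6, 40.9 and 30.5 FPKM in NP-IWP2. Its passaged library was the lowest on days 5, 7 and 10, at 0.452 times NP-ctrl on day 7 (0.426 to 0.478) and 0.491 times on day 10 (0.461 to 0.523). LATS2 (ENSG00000150457, chr13:20973036-21061586, minus strand) was 7.41, 9.40, 8.35 and 7.56 FPKM in passaged cells, 4.47, 11.6, 10.2 and 10.6 FPKM in NP-ctrl, and 4.75, 10.5, 8.52 and 8.47 FPKM in NP-IWP2. It was 1.66 times NP-ctrl on day 3 (1.46 to 1.89) and 0.716 times on day 10 (0.645 to 0.795).

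**Figure D3:**
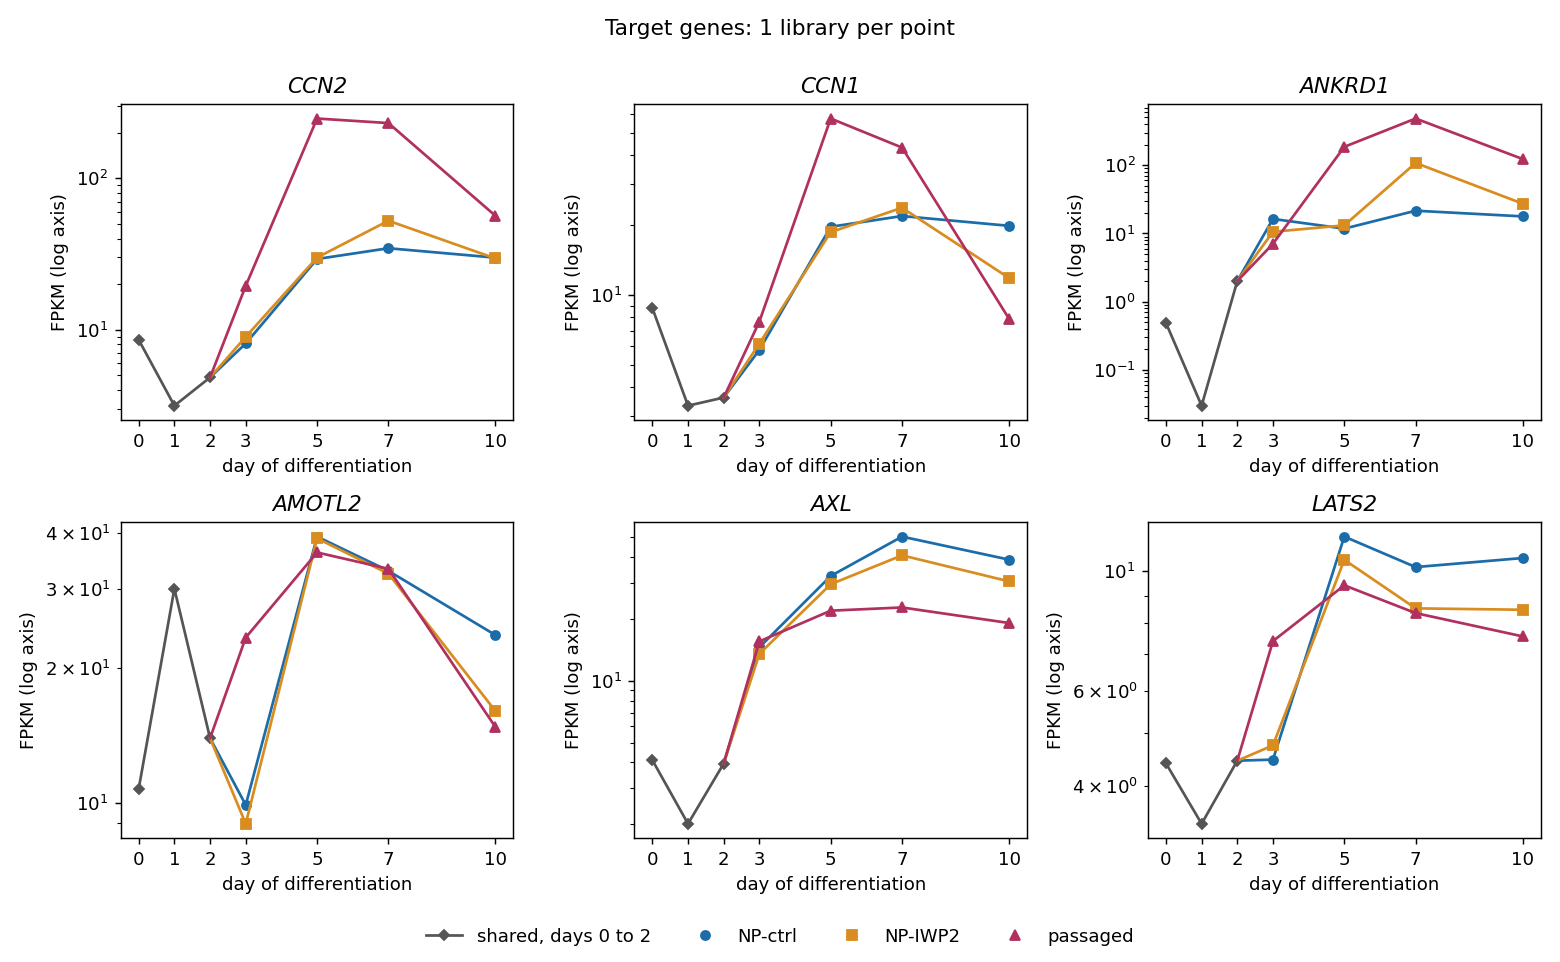
FPKM (log axis) of the 6 targets against the day of differentiation, 1 library per point, with the shared days in grey and the arms in colour. CCN2 (248 FPKM), CCN1 (57.6 FPKM) and ANKRD1 (186 FPKM) were far above the static arms in passaged cells on day 5, whereas AXL in passaged cells lay below both static arms from day 5 on.

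Set side by side by day, targets and factors of the passaged arm stood on either side of NP-ctrl. On day 3, 3 factors (YAP1, TEAD1 and TEAD4) and 4 targets (CCN1, CCN2, AMOTL2 and LATS2) were above NP-ctrl beyond counting error, while ANKRD1 was below and no factor was. On day 5, CCN1, CCN2 and ANKRD1 were above and the other 3 targets below, while YAP1, WWTR1 and TEAD1 were below. On day 7 the same 3 targets were above and AXL and LATS2 below, while TEAD4 was above and the other 3 factors below. On day 10, CCN2 and ANKRD1 were above and the other 4 targets below, with YAP1 and TEAD4 above and TEAD1 below.

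By the limit of 1 in log2(FPKM + 1), 3, 4, 3 and 2 members of passaged cells differed from NP-ctrl on the 4 successive days, when 8.46%, 8.14%, 12.6% and 17.3% of all genes did. CCN2 and AMOTL2 were higher and ANKRD1 lower on day 3, CCN1, CCN2 and ANKRD1 higher and TEAD1 lower on day 5, CCN2 and ANKRD1 higher and AXL lower on day 7, and ANKRD1 higher and CCN1 lower on day 10. Against NP-IWP2 the counts were 2, 3, 2 and 1, all of them targets and all higher in passaged cells, beside 8.66%, 7.49%, 6.64% and 10.0% of all genes. Small differences of the factors depended on the scaling. Expressed as TPM, which divides by the sum over all genes, the median difference of all genes moved to 0.28 on day 3, -0.22 on day 7 and -0.38 on day 10, and YAP1 on day 10 moved from 0.28 to -0.01.

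**Figure D4:**
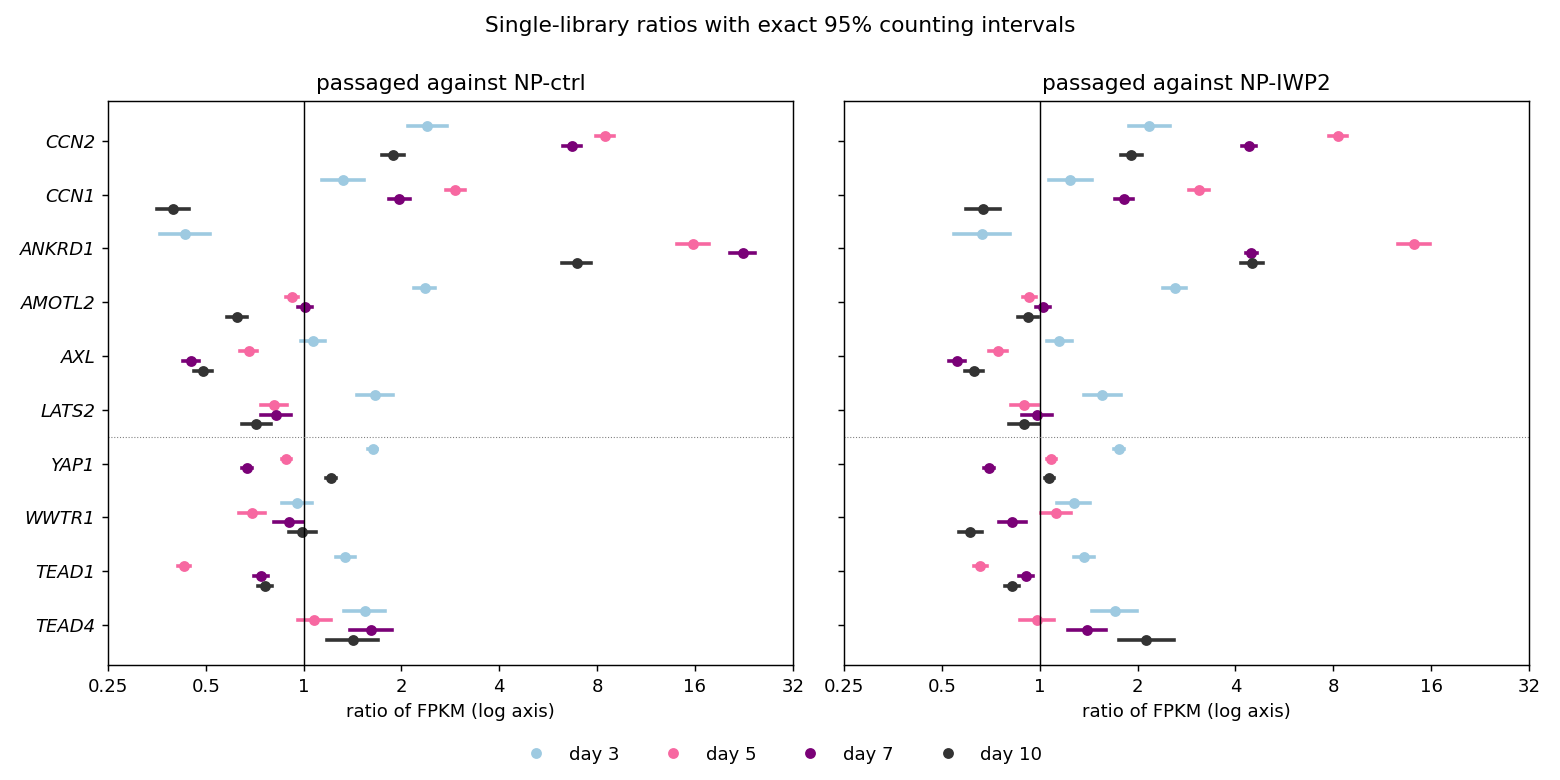
Ratio of FPKM (log axis) of passaged cells to NP-ctrl (left) and to NP-IWP2 (right) for each member and day, points with exact 95% counting intervals, targets above the dotted line and factors below it. CCN2 lay to the right of 1 on all days in both panels, ANKRD1 crossed from 0.433 on day 3 to 22.4 on day 7 against NP-ctrl, and the factors stayed between 0.429 and 2.13.

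The arms were compared over days with the quasi-likelihood test of edgeR on the counts, with arm and day as factors in all arms together. The error thus measures how the differences between arms varied among these days. It holds no variation between replicate cultures. Changes are on the log2 scale with their standard error, and p-values were adjusted by Benjamini-Hochberg over all 21206 genes. In passaged cells against NP-ctrl, CCN2 rose by 2.12 ± 0.35 (edgeR, adjusted p = 0.00835) and was higher on 4 of 4 days. It was the only 1 of the 10 members called, against 4.40% of all genes, and 1.64% of all genes were called higher. The call was lost without day 5 or without day 7, with an adjusted p of edgeR of 0.0561 or 0.101. Changes of CCN2 were then 1.72 and 1.86, and 283 and 133 of all genes were called. With limma (0.0621) and with the pair of arms fitted alone (0.112) the call was also lost. Those fits called 163 and 109 of all genes. What lost the call was not tested.

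ANKRD1, with a change of 2.83 ± 0.80, did not pass (edgeR, adjusted p = 0.0726), nor did AXL with -0.60 ± 0.18 (0.0898) or TEAD4 with 0.54 ± 0.21 (0.174). ANKRD1 was higher on 3 of 4 days, AXL lower on 3 of 4 and TEAD4 higher on 4 of 4. Without day 3, ANKRD1 and AXL passed along with CCN2 (edgeR, adjusted p of 0.000674 for ANKRD1 and 0.00896 for AXL). That fit called 2373 of all 21206 genes, against 933 with day 3 kept. On day 3 ANKRD1 was below NP-ctrl, and the AXL ratio of 1.07 was within counting error (0.984 to 1.16). The remaining 6 members had changes between -0.34 and 0.52. The median over the 6 targets was 0.36 and over the 4 factors -0.02, beside 0.00 over all genes.

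Against NP-IWP2, CCN2 again was higher in passaged cells on 4 of 4 days, by 1.97 ± 0.35 (edgeR, adjusted p = 0.0236). It was the 1 member called of 10, against 1.33% of all genes. This call too was lost without day 5 (edgeR, 0.135), without day 7 (0.171), with limma (0.158), with the pair of arms alone (0.0507) and with a filter of mean FPKM of at least 5 (0.0540). In that order, those settings called 51, 13, 6, 163 and 53 genes (the last of 8098 tested), against 282 in the main fit. ANKRD1 (2.42 ± 0.73, edgeR, adjusted p = 0.169) and CCN1 (0.74 ± 0.35, 0.404) did not pass. Without day 3 ANKRD1 passed (edgeR, adjusted p = 0.00694), in a fit that called 675 of all genes. Both comparisons use the same passaged libraries.

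Markers of other cell types moved with these comparisons. Between passaged cells and NP-ctrl, 5 of 8 fibroblast and epicardial markers and 2 of 5 endoderm and liver markers fell by the same edgeR test, none of 6 cardiomyocyte markers passed it, and 5 of those 6 had an unadjusted p below 0.05. By that test 4062 of all 21206 genes had an unadjusted p below 0.05. DESeq2 called 4 of the fibroblast and epicardial, 4 of the endoderm and liver and 3 of the cardiomyocyte markers. In the same order limma called 1, 0 and 0. Over all genes edgeR called 933, DESeq2 2150 and limma 163. Summed FPKM of the fibroblast and epicardial markers spanned 48.9 to 4092 over the days of NP-ctrl, 28.8 to 1162 for NP-IWP2 and 90.6 to 405 for passaged cells. For endoderm and liver markers the ranges were 20.3 to 3671, 25.5 to 1095 and 2.71 to 19.3, for cardiomyocyte markers 13.8 to 609, 8.71 to 2186 and 16.8 to 3446, and for 4 endothelial markers 104 to 164, 93.1 to 118 and 16.6 to 121. On day 3, AFP, TTR and WT1 had 0 counts in all 3 arms. So did TBX18 and CDH5 in both static arms, PECAM1 in NP-ctrl and LUM in NP-IWP2. The endothelial sum of 104 in NP-ctrl was that of day 3 and thus held no counts of PECAM1 or CDH5. After day 3 the markers at 0 counts were all in passaged cells, with TCF21 on days 7 and 10, AFP and SOX17 on day 7, FOXA2 on day 10 and PECAM1 on day 5. On day 5, when CCN2 and CCN1 peaked in FPKM in passaged cells, the cardiomyocyte sum was 509 in passaged cells, 440 in NP-ctrl and 605 in NP-IWP2. In the same order the fibroblast and epicardial sum was then 311, 1612 and 922, the endothelial sum 16.6, 120 and 101, and the endoderm and liver sum 2.71, 127 and 67.6. On day 7, when ANKRD1 peaked in passaged cells, the cardiomyocyte sum was 2828 in passaged cells, 609 in NP-ctrl and 2186 in NP-IWP2. The part of these differences in the levels of CCN2, ANKRD1 and AXL was not tested.

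Between NP-IWP2 and NP-ctrl cells the test over days called almost no genes. By edgeR it called 4 of all 21206 genes (0.0189%) and 0 of the 10 members, a count that says little about the members. An unadjusted p below 0.05 was found in 0 members and 1009 of all genes. DESeq2 called 61 and limma 0 of all genes, with 0 members in both. Estimated changes ran from -0.30 ± 0.22 for TEAD1 to 0.41 ± 0.72 for ANKRD1. Among single libraries the 1 difference past the limit of 1 was ANKRD1 on day 7, at 5.01 times NP-ctrl (4.56 to 5.51). Of all genes, 4.12%, 2.95%, 7.20% and 9.32% passed that limit on days 3, 5, 7 and 10. On day 7 the cardiomyocyte marker sum was 2186 in NP-IWP2 and 609 in NP-ctrl. CCN2 was 1.52 times NP-ctrl on day 7 (1.41 to 1.64), and on days 3, 5 and 10 its ratio was within counting error.

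Across days, with the 3 arms as repeats, 6 of the 10 members rose between day 3 and day 10 and none fell. Of all genes, 35.0% were called in this comparison, 17.9% higher. AXL rose by 1.03 ± 0.21 (edgeR, adjusted p = 0.00327), CCN2 by 1.82 ± 0.40 (0.00460), LATS2 by 0.77 ± 0.21 (0.0138) and CCN1 by 1.15 ± 0.40 (0.0448). Of the factors, TEAD1 rose by 1.13 ± 0.25 (edgeR, adjusted p = 0.00549) and WWTR1 by 0.86 ± 0.25 (0.0193). All 6 were higher on day 10 in 3 of 3 arms, although in passaged cells CCN1 was 7.67 FPKM on day 3 and 7.89 FPKM on day 10, and LATS2 was 7.41 and 7.56 FPKM. TEAD4 was lower in 3 of 3 arms without passing (-0.56 ± 0.24, edgeR, adjusted p = 0.0945), but fell by 0.59 in limma (adjusted p = 0.0353). ANKRD1 (1.22 ± 0.83), AMOTL2 (0.52 ± 0.30) and YAP1 (0.13 ± 0.24) did not pass. Without NP-IWP2, edgeR called 0 of the 10, and 3 had an unadjusted p below 0.05, beside 6104 of all genes. Without NP-ctrl it called 4 and without passaged cells 7. In that order these fits called 2235, 5619 and 7262 of all 21206 genes. CCN1 was lost in limma (adjusted p = 0.173). With no filter on low genes ANKRD1 also passed.

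Whether the arms differed in their course was asked with a slope over days in each arm. None of the 10 members was called by edgeR in passaged cells against NP-ctrl (0.160% of all genes), in NP-IWP2 against NP-ctrl (0.00%) or in passaged cells against NP-IWP2 (0.00472%), and DESeq2 and limma called 0 as well. While 3307, 1204 and 1609 of all 21206 genes had an unadjusted p below 0.05, the members under it numbered 0, 1 and 1. Both were WWTR1, whose slope was steeper in NP-IWP2 by 0.20 ± 0.05 log2 units per day than in NP-ctrl (edgeR, adjusted p = 0.847) and less steep in passaged cells than in NP-IWP2 (-0.13 ± 0.05, 0.626). A straight line over days describes a peak on day 5 or 7 poorly, and the members with such peaks had wide errors, such as -0.15 ± 0.42 for CCN2 in passaged cells against NP-ctrl.

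The level of the targets relative to the factors was read in each library as the median log2(FPKM + 1) of the 6 targets minus that of the 4 factors. It was -1.09, -1.68 and -1.46 on days 0, 1 and 2 and near 0 on day 3, with -0.02 (NP-ctrl), 0.06 (NP-IWP2) and -0.23 (passaged). On day 5 it reached 1.32 in passaged cells, while NP-ctrl had -0.12 and NP-IWP2 had 0.09. On day 7 the values in the order above were 0.78, 1.26 and 1.16, and on day 10 they were 0.64, 0.33 and 0.36. Day 5 was the one day on which the passaged library stood more than 1 above both others. The target median was then 5.543 in passaged cells, 4.645 in NP-ctrl and 4.615 in NP-IWP2. In the same order the factor median was 4.226, 4.764 and 4.53, so both sides entered the gap. AMOTL2, AXL and LATS2 were below both static arms in passaged cells on that day.

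**Figure D5:**
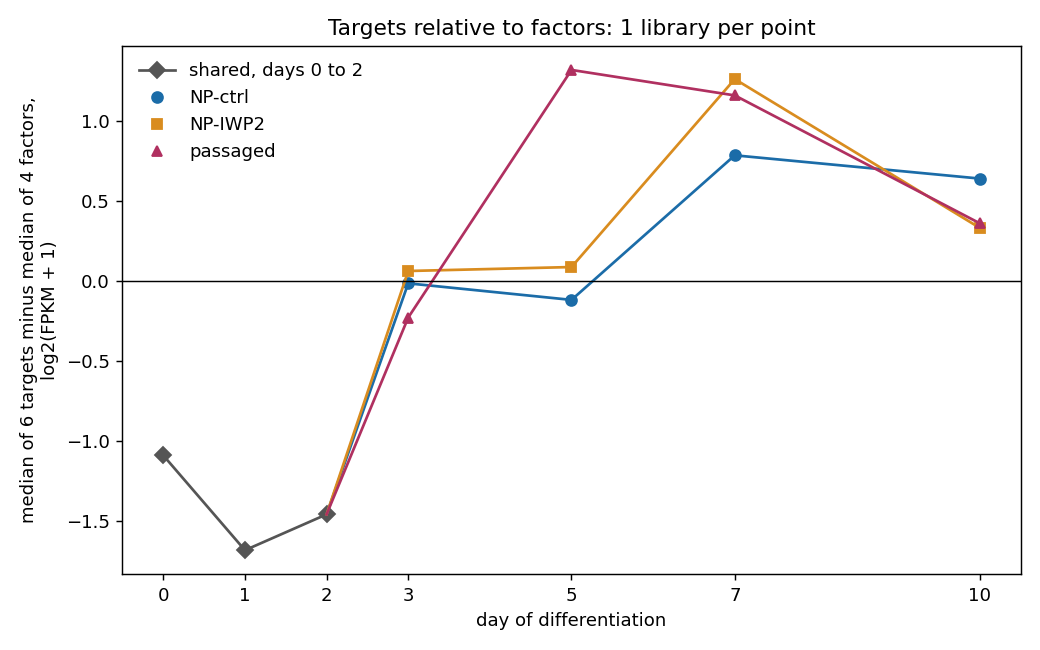
Median log2(FPKM + 1) of the 6 targets minus that of the 4 factors against the day of differentiation, 1 library per point. The passaged library of day 5 (1.32) lay above NP-ctrl (-0.12) and NP-IWP2 (0.09), and by day 10 all 3 arms lay between 0.33 and 0.64.

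Over the 15 libraries the targets fell into loose groups, described here by Pearson correlation of log2(FPKM + 1) among libraries that share arms and days. CCN2 went with ANKRD1 (r = 0.913) and with CCN1 (r = 0.908), and AXL went with LATS2 (r = 0.894). LATS2 was the target most like a factor, with r = 0.903 to TEAD1, whereas CCN2 had r = 0.567 to YAP1 and r = 0.542 to TEAD1. TEAD4 had r between -0.71 (with WWTR1) and 0.25 (with AMOTL2) to the other members. Among 13874 protein-coding genes, those most like the mean of the 6 targets over the 15 libraries were FN1, which encodes fibronectin (r = 0.966), UBE2J1 (0.962), NOG, which encodes the BMP antagonist noggin (0.949), NXPH2 (0.948) and TPM1, a tropomyosin (0.947). Those most like the mean of the 4 factors were PLSCR5 (r = 0.934), METTL24 (0.922), PLPPR4 (0.912), NAV2 (0.911) and SSH1, a cofilin phosphatase (0.906).

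Other genes of the pathway are set against the same background, with 35.0% of all genes called across days and 4.40% between passaged cells and NP-ctrl. Of 22 upstream Hippo genes, 9 rose and 0 fell from day 3 to day 10, among them the LATS cofactor MOB1B (1.28 ± 0.29, edgeR, adjusted p = 0.00587), the atypical cadherin FAT1 (1.15 ± 0.27, 0.00643) and the YAP-binding scaffold AMOT (3.20 ± 0.76, 0.00736). Of 6 other partners, TEAD3 rose by 0.76 ± 0.18 (edgeR, adjusted p = 0.00651) and TEAD2 fell by 1.28 ± 0.17 (0.000295), and the TEAD cofactors VGLL4 (0.57 ± 0.17, 0.0247) and VGLL1 (5.91 ± 2.04, 0.0498) rose. Of 16 other targets, 8 rose and 3 fell, with the largest changes in CCDC80 (7.45 ± 0.48, edgeR, adjusted p = 5.53e-06), RBMS3 (6.11 ± 0.30, 1.59e-06) and TGFB2 (5.97 ± 0.62, 6.34e-05), while FOXF2 fell by 2.60 ± 0.23 (2.43e-05). Median changes were 0.25 over the upstream genes and 0.80 over the other targets, against 1.09 over the 6 targets, 0.50 over the 4 factors and 0.04 over all genes. In passaged cells against NP-ctrl, edgeR and limma called 0 of these genes and DESeq2 called 2 upstream genes and 2 other targets. Over all 21206 genes DESeq2 called 2150 and limma 163. With edgeR the unadjusted p was below 0.05 in 4 of 22 upstream genes, 0 of 6 partners and 5 of 16 other targets. The same held for 4062 of all 21206 genes. The median of the other targets was -0.25 against 0.36 over the 6 targets. Of 7 immediate early genes, 6 were tested and JUN fell in that comparison (-1.44 ± 0.33, edgeR, adjusted p = 0.0324), and 0 of 8 SRF and actin-linked genes passed, with a median of 0.59. Of those 8, 5 had an unadjusted p below 0.05 with edgeR, and DESeq2 called 3 and limma 0.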

How the data were processed

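Bulk RNA sequencing of H1 cells was analysed in 15 libraries, 1 per arm and day, grouped by the sample labels. Per the labels, the submitters' processing notes name cutadapt (version 1.9.1), HISAT2 (2.0.1), HTSeq (0.6.1) and DESeq2, with hg38. The authors deposited whole-number counts for 60605 genes together with FPKM values, which follow from these counts, the exonic length and the library total (recomputed within 0.005). The labels name SMRTbell, a kit for long reads, although the tools are made for short reads, so values scaled by length are in doubt to that degree. Strand use in counting was not given in the sources used here; counts of overlapping genes were at most 0.00933 of a member's own in the median library. Of the genes, 60463 matched GENCODE v44 by identifier, and all 10 members had identical positions.

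Genes with FPKM of at least 1 in at least 1 library were kept (21206, of which 13874 were protein-coding). Arms and days 3 and 10 were compared over 12 libraries with edgeR 4.0.16 (R 4.3.3; TMM, glmQLFit and glmQLFTest, arm and day as factors), and slopes with day as a number. Calls required an adjusted p under 0.05. Single libraries were compared on log2(FPKM + 1) with a limit of 1 and by ratios with exact 95% counting intervals. With 13254723 to 20250115 counts per library, 3 counts correspond to 0.148 to 0.226 FPKM at 1 kilobase. Only the main edgeR fits, with day as a factor and as a slope, were tested on simulated counts. Alternatives were DESeq2 1.42.0, limma 3.58.1, other size factors, filters, pseudocounts and scalings, fits of 2 arms, and omission of each day or arm. Labels do not say whether days came from separate cultures, so p-values measure only the spread between these libraries.

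The members and gene lists were chosen with earlier results of these data known. All 10 members are named; genes of the upstream, partner and other target lists are named among at most 6 per list with the lowest adjusted p under 0.05. Other lists are given as counts and ranges, and JUN, the marker genes at 0 counts and the summed TEAD family were named after their values were seen. The 5 most alike genes were ranked by Pearson correlation to the mean standardised level of the targets or factors.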

Additional observations from a re-analysis of the deposited data

Results flagged for a closer look

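The difference in log2(FPKM + 1) between passaged cells and NP-ctrl was at least 1 in size with opposite signs on different days for 2 targets, CCN1 and ANKRD1. AMOTL2, AXL and LATS2 also changed sign between days, with differences under 1 in at least 1 of the directions. For CCN1 it was 1.50 on day 5 and -1.23 on day 10. For ANKRD1 it was -1.10 on day 3, against 3.87 on day 5, 4.42 on day 7 and 2.72 on day 10. With 1 library per arm and day, the difference between any 2 days was not tested. The edgeR test of the slope over days did not pass for either gene (adjusted p = 0.765 for CCN1 and 0.741 for ANKRD1).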

How the results depend on the processing

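In passaged cells against NP-ctrl, the number of members called was 1 as reported, 2 with no filter on low genes (ANKRD1 and CCN2), 3 with DESeq2 (ANKRD1, AXL and CCN2), 0 with limma, 0 with only the 2 arms compared, and 0 to 3 with 1 day left out. In passaged cells against NP-IWP2 it was 1 as reported, 3 with no filter (ANKRD1, CCN1 and CCN2), 0 with mean FPKM of at least 5, 0 with limma, 0 with only the 2 arms compared, and 0 to 2 with 1 day left out. Between day 3 and day 10 it was 6 as reported and 0 to 7 with 1 day or arm left out. Calls over all genes there were 7423 as reported and 2235 to 7262 with 1 day or arm left out. In passaged cells against NP-ctrl, calls over all genes numbered 933 as reported, 2571 with no filter, 2150 with DESeq2 and 163 with limma. With 2 arms they numbered 109, and with 1 day left out 133 to 2373. Against NP-IWP2 they were 282 as reported, 1368 with no filter, 53 with the stricter filter and 6 with limma. There, 2 arms gave 163 and 1 day left out 13 to 675. With no filter 41457 genes were tested, and with the stricter filter 8098. Where 0 members were called, 2 to 4 had an unadjusted p below 0.05. The cause of these changes was not tested, except that the fits that leave out a day, or keep only 2 arms, have fewer libraries. NP-IWP2 against NP-ctrl and the 3 slope comparisons gave 0 members under every alternative run, with an unadjusted p below 0.05 in 0 to 2. In NP-IWP2 against NP-ctrl, calls over all genes ranged from 0 with limma to 372 of 41457 with no filter. Members past 1 in passaged cells against NP-IWP2 on day 10 were 1 as reported, 2 with a pseudocount of 0.1 and 3 with FPKM rescaled by TMM factors. Of 360 alternative values of single-library differences, 277 stayed within the counting interval and the largest move was 0.36. Of the alternative tests of single members, 134 kept their side of the threshold, 20 lost it, 8 gained it and 0 changed direction. The arms were matched by day in every fit except those of slopes, and the labels give no replicate numbers. Depth limits ANKRD1 on days 0 and 1 (15 counts and 1 count), and the lack of a replicate for any arm and day limits every comparison.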
